A study of Mus musculus with 6 samples.

Results

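The genes described here are Il21, Il21r, Bcl6, Cxcr5, Icos, Sh2d1a and Ascl2, a set built around the cytokine IL-21 and the follicular helper T cell, in mouse splenic CD4+ T cells. They were chosen by symbol, as the probe sets that the platform annotation assigns to one of these symbols alone, and all 7 were found, each with 1 probe set, among 22180 genes. The cells were purified from the spleen on magnetic beads and cultured for 12 hours in RPMI with 10% serum, activated with anti-CD3/CD28 antibody at 1 µg/ml. PlGFCM cells received medium conditioned by HEK-293 clones, a human embryonic kidney line, that overexpress PlGF2, a form of placental growth factor, IL6_ConCM cells received control conditioned medium with IL-6 at 20 ng/ml, and ConCM cells received the control medium alone. Each group held 2 arrays, 6 in all, and no strain, age or genotype of the mice is given in the sources used here. All groups had the stimulating antibodies, so none shows resting cells, and PlGFCM holds whatever else the clones release. The values are log2 levels on an Affymetrix whole-transcript array, so a difference of 1 is a doubling.

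Follicular helper T cells are the CD4+ cells that help B cells make antibody in germinal centres. IL-21 is their main secreted cytokine and binds a receptor made of Il21r and the common gamma chain, which signals through STAT3. Bcl6 is the transcription factor that defines them, Ascl2 is a transcription factor that acts with it and favours Cxcr5, and Cxcr5 is the chemokine receptor that draws the cells into B cell follicles. Icos is a costimulatory receptor that sustains the program, and Sh2d1a encodes SAP, the adaptor of SLAM family receptors that lets T cells hold on to B cells. IL-6 is a known inducer of Il21 and Bcl6 in activated mouse CD4+ T cells.

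Promoter sequences were found in RefSeq (GRCm38.p6) for 4 of the 7 genes, Il21, Il21r, Bcl6 and Ascl2, with 5 start sites. The 250 bases before the start are shown 5′ to 3′ for Il21 and Il21r, the ligand and receptor whose levels lay farthest above ConCM, and for a start site of Bcl6, the factor that defines the cell type. The Il21 window lies at chr3:37232637-37232886 on the minus strand, and its capitals mark GGAAA, the core letters bound by NFAT factors, on either strand. The Il21r window lies at chr7:125603179-125603428 on the plus strand and has no capitals. The Bcl6 window lies at chr16:23981284-23981533 on the minus strand, and its capitals mark TTCNNNGAA, the letters bound by STAT factors.
Il21: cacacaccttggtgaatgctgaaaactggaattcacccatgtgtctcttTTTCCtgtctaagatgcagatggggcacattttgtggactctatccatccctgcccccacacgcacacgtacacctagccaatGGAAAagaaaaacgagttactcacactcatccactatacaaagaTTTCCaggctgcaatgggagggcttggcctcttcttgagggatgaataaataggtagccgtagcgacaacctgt
Il21r: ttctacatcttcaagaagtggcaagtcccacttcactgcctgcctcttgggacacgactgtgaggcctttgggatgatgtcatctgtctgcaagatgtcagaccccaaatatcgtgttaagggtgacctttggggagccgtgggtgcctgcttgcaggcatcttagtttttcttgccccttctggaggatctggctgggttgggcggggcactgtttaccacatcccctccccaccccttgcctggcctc
Bcl6: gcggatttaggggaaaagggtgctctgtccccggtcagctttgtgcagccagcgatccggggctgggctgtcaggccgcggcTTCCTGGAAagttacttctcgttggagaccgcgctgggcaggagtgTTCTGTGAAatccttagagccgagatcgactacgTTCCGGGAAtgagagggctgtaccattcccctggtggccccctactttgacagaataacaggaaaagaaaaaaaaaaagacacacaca
GGAAA was found on either strand 3 times before Il21, 3 times in the Bcl6 window shown and 1 time at the other Bcl6 start site, against 0 times before Il21r and Ascl2, and 55.6% of 32851 upstream windows of mouse genes hold it. TTCNNNGAA, which reads the same on both strands, was found 3 times in this Bcl6 window and 1 time at the other Bcl6 start site, against 0 times before Il21, Il21r and Ascl2, and 7.02% of the windows hold it. The first of the 3 Bcl6 matches overlaps a GGAAA. The AP-1 letters TGANTCA, searched on both strands, were in none of the 5 windows and are in 6.75% of all. These matches describe the letters of the windows and were not measured on the arrays.

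Across the 22180 genes, arrays of the same group correlated at an r of 0.994 to 0.995 and arrays of different groups at 0.993 to 0.995, a description across genes, which are not replicates. PlGFCM replicate 2 stood apart in Xist, the RNA of the inactive X chromosome, with a log2 level of 8.38 against 3.58 to 3.95 on the other 5 arrays. The changes of the 7 genes from ConCM in PlGFCM without this array are therefore given below. The Y chromosome genes Uty, Kdm5d and Eif2s3y were measured on every array and were lowest on this one. Uty was at 7.502 against 7.772 to 8.138, Kdm5d at 7.066 against 7.421 to 7.770, and Eif2s3y at 8.590 against 8.895 to 9.144. What sets this array apart was not tested. Markers of T cells were measured for 9 of 10 genes, with a mean log2 level of 10.50 and 10.52 in PlGFCM, 10.58 and 10.43 in IL6_ConCM, and 10.49 and 10.34 in ConCM, lowest on ConCM replicate 2. Markers of B cells, which also express Cxcr5, Il21r and Bcl6, were measured for 10 of 11 genes, with means of 6.38 and 6.38 in PlGFCM, 6.36 and 6.40 in IL6_ConCM, and 6.41 and 6.36 in ConCM. Cd4 was at 11.36 and 11.13 in PlGFCM, 11.29 and 11.22 in IL6_ConCM, and 11.26 and 11.39 in ConCM. In PlGFCM against ConCM, 7 of the 10 B cell markers had a positive and 3 a negative log2 change, with a median of 0.20. The 2 that passed both fell, Ms4a1 by 0.84 and Fcer2a by 0.86, while Cr2 was at 0.47, Cd79b at 0.33 and Pax5 at 0.31 (limma adjusted p from 0.455 to 0.595). Of all genes, 0.0812% passed lower and 0.352% higher in this comparison. Neither Ms4a1 nor Fcer2a passed without PlGFCM replicate 1, PlGFCM replicate 2 or ConCM replicate 2, nor Ms4a1 without ConCM replicate 1. Of 8 markers of NK and CD8 T cells, Gzma, which encodes a cytotoxic granule protease, rose by 0.93 in PlGFCM and by 1.12 in IL6_ConCM (limma adjusted p = 0.0123 and 0.00692), while the list, Gzma included, averaged 5.97 and 6.14 in PlGFCM, 6.22 and 6.08 in IL6_ConCM, and 6.04 and 5.93 in ConCM. In PlGFCM 3 of the 8 had a positive and 5 a negative log2 change, with a median of -0.09. In IL6_ConCM 5 were positive and 3 negative, with a median of 0.05. Prf1, another of the 8, was at 0.34 and 0.33 (limma adjusted p = 0.283 and 0.563). Beside Gzma, 0.352% of all genes passed higher in PlGFCM and 0.0857% in IL6_ConCM. The call of Gzma in PlGFCM ended without PlGFCM replicate 1, PlGFCM replicate 2 or ConCM replicate 2, and that in IL6_ConCM without ConCM replicate 2. None of 10 myeloid and dendritic cell markers and none of 5 regulatory T cell markers passed in any comparison. Of the myeloid markers 5 were positive and 5 negative in PlGFCM against ConCM, with a median of 0.04 and Cd14 highest at 0.67 (limma adjusted p = 0.0806). All 5 regulatory T cell markers were positive there, with a median of 0.11, and in PlGFCM against IL6_ConCM, with a median of 0.09. In IL6_ConCM against ConCM 3 of them were positive and 2 negative, with a median of 0.06. The part of these cells in the results below was not tested. In a bulk sample, fewer cells of a type and less RNA per cell cannot be told apart.

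Il21, the cytokine itself, had the widest spread among the 7 genes. Its log2 level was 10.01 and 10.34 in PlGFCM, 10.52 and 10.02 in IL6_ConCM, and 9.81 and 9.07 in ConCM. Both treated groups lay above both ConCM arrays and overlapped each other, and the gap of 0.75 between the ConCM arrays was wider than the gap of 0.34 in PlGFCM and of 0.50 in IL6_ConCM. Il21 averaged 10.18 ± 0.24 in PlGFCM and 9.44 ± 0.53 in ConCM (SD, n = 2 each), which is 0.74 ± 0.21 (SE) higher on the log2 scale, or 1.67-fold with a 95% interval of 1.21 to 2.31, and limma's p adjusted over all genes was 0.271. In IL6_ConCM it averaged 10.27 ± 0.35, 0.83 ± 0.21 above ConCM, or 1.78-fold with an interval of 1.29 to 2.47 (adjusted p = 0.339). PlGFCM and IL6_ConCM differed by -0.10 with an interval of -0.56 to 0.37 (adjusted p = 0.998). The range of Il21 over the 6 arrays, 1.46 log2 units, was wider than that of 99.9% of the genes.

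**Figure D1:**
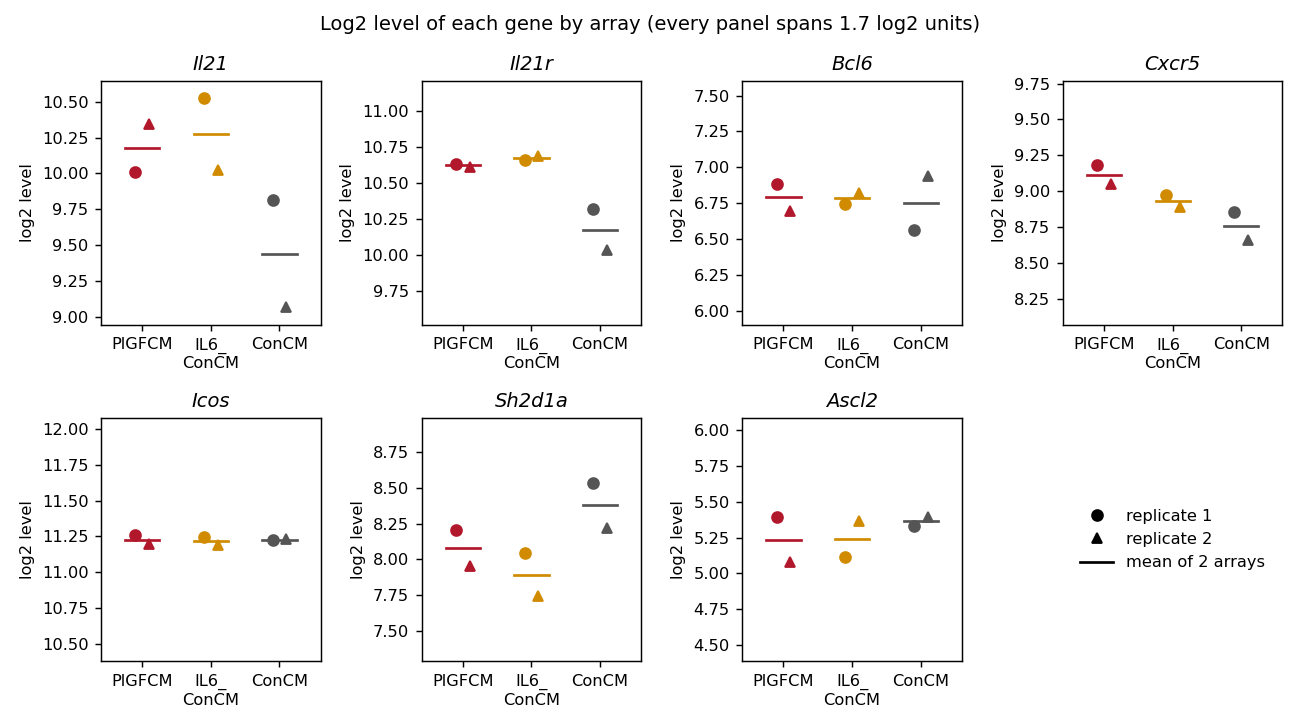
Log2 level of each of the 7 genes on each array, in a panel per gene, with replicate 1 as a circle, replicate 2 as a triangle and the mean of 2 arrays as a line. The PlGFCM and IL6_ConCM points lie above both ConCM points for Il21, Il21r and Cxcr5 and below them for Sh2d1a, while Icos spans 0.07 log2 units over all arrays.

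The size of the Il21 difference varied with the array left out, most with those of ConCM. Without ConCM replicate 1 the log2 change was 1.11 in PlGFCM and 1.21 in IL6_ConCM, and both passed (adjusted p = 0.0372 and 0.0278), but ConCM is then 1 array, the one lowest for Il21, and is assumed to vary like the other groups. Without ConCM replicate 2, the array with the lowest Il21 level and the lowest mean of T cell markers, the changes were 0.36 and 0.46 (adjusted p = 0.640 and 0.861). The part of the T cell marker level in the Il21 result was not tested. In IL6_ConCM the change was 0.58 without IL6_ConCM replicate 1 and 1.08 without IL6_ConCM replicate 2. Leaving out PlGFCM replicate 1 gave a change of 0.91 in PlGFCM. Without PlGFCM replicate 2 the change in PlGFCM was 0.57 (adjusted p = 0.524).

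Il21r, the receptor chain specific to IL-21, had tighter replicates than its ligand in both treated groups. Its log2 level was 10.63 and 10.61 in PlGFCM, 10.66 and 10.69 in IL6_ConCM, and 10.32 and 10.03 in ConCM. Both treated groups lay above both ConCM arrays, and the PlGFCM arrays lay just below the IL6_ConCM arrays with no overlap. The level averaged 10.62 ± 0.01 in PlGFCM, 10.68 ± 0.02 in IL6_ConCM and 10.18 ± 0.20 in ConCM (SD, n = 2 each). The log2 change from ConCM was 0.45 ± 0.08 (SE) in PlGFCM, 1.36-fold with an interval of 1.20 to 1.55, at an adjusted p of 0.0527 by limma. In IL6_ConCM it was 0.50 ± 0.08, 1.42-fold with an interval of 1.25 to 1.61 (adjusted p = 0.0586). These adjusted p-values lie just outside the threshold of 0.05, and the difference between the treated groups was -0.05 with an interval of -0.24 to 0.13 (adjusted p = 0.998).

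Il21r ranked 102nd of 22180 genes by p in PlGFCM against ConCM and 34th in IL6_ConCM against ConCM. For PlGFCM it passed with quantile normalization (adjusted p = 0.0444), with dim genes, under the median level, left out (0.0282) and without ConCM replicate 1 (0.00965), and did not pass in 9 other alternatives of 12, where adjusted p ran from 0.0525 to 0.471. For IL6_ConCM it passed with dim genes left out (0.0316) and without ConCM replicate 1 (0.00622), and not in the other 10 alternatives, where adjusted p ran from 0.0528 to 0.675. Without ConCM replicate 2, its log2 change was 0.31 in PlGFCM and 0.36 in IL6_ConCM (adjusted p = 0.246 and 0.298), and without PlGFCM replicate 2 it was 0.46 in PlGFCM (adjusted p = 0.290).

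Cxcr5, the follicle-homing receptor, had a log2 level of 9.18 and 9.05 in PlGFCM, 8.97 and 8.89 in IL6_ConCM, and 8.85 and 8.66 in ConCM. The groups stood in this order with no overlap between any pair. PlGFCM averaged 9.12 ± 0.09 and ConCM 8.76 ± 0.14 (SD, n = 2 each), a difference of 0.36 ± 0.09 (SE), or 1.28-fold with an interval of 1.12 to 1.47, which did not pass by limma (adjusted p = 0.179). IL6_ConCM averaged 8.93 ± 0.06, a change of 0.18 with an interval of -0.02 to 0.38 (adjusted p = 0.930). PlGFCM minus IL6_ConCM was also 0.18, with an interval of -0.02 to 0.38 (adjusted p = 0.998). Without PlGFCM replicate 2, Cxcr5 was 0.42 above ConCM in PlGFCM (adjusted p = 0.298), and without ConCM replicate 2 it was 0.26 above (adjusted p = 0.518).

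Sh2d1a, the SAP adaptor, is a gene of the X chromosome and lay below ConCM in both treated groups. Its log2 level was 8.21 and 7.95 in PlGFCM, 8.05 and 7.74 in IL6_ConCM, and 8.54 and 8.22 in ConCM. The treated groups overlapped each other and neither reached the ConCM arrays, although PlGFCM replicate 1 and ConCM replicate 2 were close. The log2 change was -0.30 ± 0.13 (SE) in PlGFCM, with an interval of -0.60 to -0.0025 (limma adjusted p = 0.565), and -0.48 ± 0.13 in IL6_ConCM, with an interval of -0.78 to -0.19 (adjusted p = 0.421). Without ConCM replicate 1 these were -0.14 and -0.33 (adjusted p = 0.967 and 1.0), and without PlGFCM replicate 2 the change in PlGFCM was -0.17 (adjusted p = 0.746).

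Bcl6, the defining transcription factor, had a log2 level of 6.88 and 6.70 in PlGFCM, 6.75 and 6.82 in IL6_ConCM, and 6.56 and 6.94 in ConCM. The ConCM arrays lay on either side of all 4 treated arrays. The log2 change was 0.04 ± 0.13 (SE) in PlGFCM and 0.03 ± 0.13 in IL6_ConCM, with fold intervals of 0.84 to 1.26 and 0.83 to 1.25 (limma adjusted p = 0.967 and 1.0).

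Icos, the costimulatory receptor, was nearly the same on every array. Its log2 level was 11.26 and 11.20 in PlGFCM, 11.25 and 11.19 in IL6_ConCM, and 11.22 and 11.23 in ConCM. The log2 change lay between -0.12 and 0.12 in PlGFCM and between -0.13 and 0.11 in IL6_ConCM by the 95% intervals, fold ranges of 0.92 to 1.09 and 0.91 to 1.08, and its span over the 6 arrays was narrower than that of all but 0.455% of genes.

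Ascl2 was the single member whose mean level, 5.28, lay below the median of all probe sets, 5.48, so it did not pass the filter on low levels that the other 6 passed. It had log2 levels of 5.40 and 5.08 in PlGFCM, 5.12 and 5.36 in IL6_ConCM, and 5.33 and 5.40 in ConCM, and all groups overlapped. Its log2 change was -0.13 ± 0.15 (SE) in PlGFCM and -0.12 ± 0.15 in IL6_ConCM (limma adjusted p = 0.876 and 0.997).

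**Figure D2:**
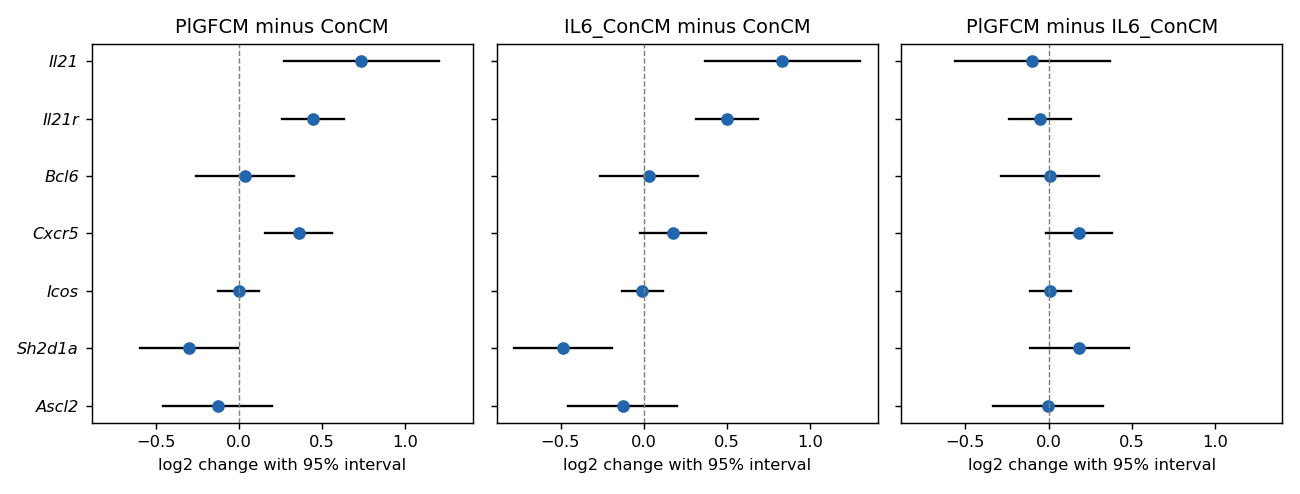
Log2 change of each gene in the 3 comparisons, with 95% intervals from limma before adjustment for the number of genes. Against ConCM the intervals of Il21 and Il21r lie above 0 and that of Sh2d1a below 0 in both treatments, that of Cxcr5 lies above 0 for PlGFCM alone, and every interval of PlGFCM minus IL6_ConCM spans 0.

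Counted over the set, 0 of 7 genes passed limma at an adjusted p under 0.05 in PlGFCM against ConCM, where 0.433% of all genes passed, 0.352% higher and 0.0812% lower. In IL6_ConCM against ConCM 0 of 7 passed, where 0.113% of all genes passed, 0.0857% higher and 0.0271% lower. In PlGFCM against IL6_ConCM 0 of 7 passed, where 0.0316% of all genes passed, 0.0316% higher and 0.0% lower. An unadjusted p under 0.05 was reached in PlGFCM against ConCM by 4 of 7 genes, Il21, Il21r, Cxcr5 and Sh2d1a, against 8.74% of all genes. It was reached in IL6_ConCM against ConCM by 3 of 7, Il21, Il21r and Sh2d1a, against 5.62%, and in PlGFCM against IL6_ConCM by 0 of 7, against 4.37%. The groups did not overlap for 4 of 7 genes in each comparison with ConCM, against 38.2% of all genes for PlGFCM and 34.1% for IL6_ConCM, and for 2 of 7 between the treatments, against 30.1%. By direction, Il21, Il21r and Cxcr5 were higher than ConCM without overlap in both treatments, 3 of 7 against 17.3% of all genes for PlGFCM and 15.7% for IL6_ConCM, and Sh2d1a was lower, 1 of 7 against 20.9% and 18.4%. Between PlGFCM and IL6_ConCM, Cxcr5 was higher, 1 of 7 against 15.2%, and Il21r lower, 1 of 7 against 14.9%. Both comparisons share the same ConCM arrays, so their values for a gene are not independent. The median log2 change of the 7 genes was 0.04 in PlGFCM and 0.03 in IL6_ConCM, against -0.01 over all genes in both. With 2 arrays against 2, the smallest two-sided p of an exact permutation test is 1 in 3. Whether replicates are separate animals or cultures is not in the labels, so p-values measure the spread between these samples alone.

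The plot of log2 changes under each way of fitting shows how these 4 genes stood in each of 12 alternatives. All 4 kept their direction against ConCM in every alternative, but quantile normalization alone could have reversed it. Their treated groups did not overlap ConCM, so leaving out a single array could not change the sign. The other alternatives leave the log2 change of these genes as it was. A call was made for Il21 and Il21r alone, that of Il21 only with a single ConCM array left.

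**Figure D3:**
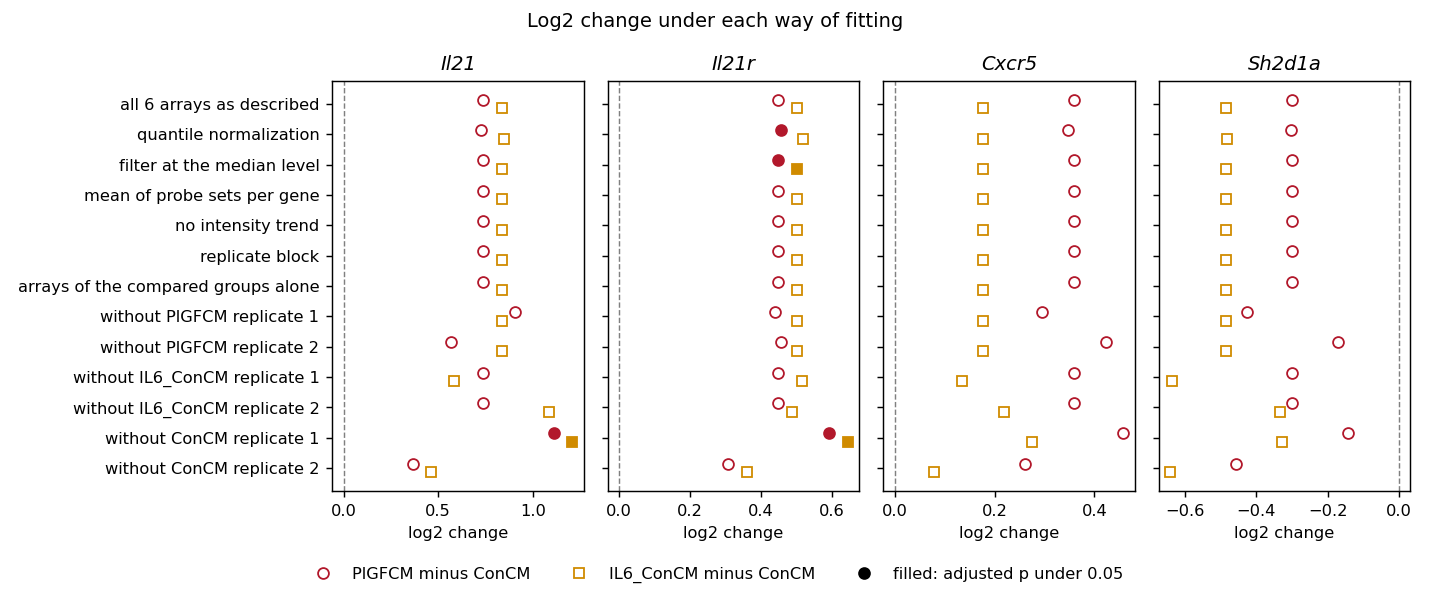
Log2 change of Il21, Il21r, Cxcr5 and Sh2d1a against ConCM (horizontal axis, each with its own scale) under each way of fitting (vertical axis), with PlGFCM as circles, IL6_ConCM as squares and filled marks where the adjusted p was under 0.05. The filled marks are 1 way of fitting for Il21 and 3 ways for Il21r in PlGFCM, and 1 and 2 ways in IL6_ConCM, and without ConCM replicate 1 is the one that both genes share.

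Genes that act with the set were taken from lists of known partners, chosen with earlier results of these data known. For each list below, the shares of all genes that passed were 0.352% higher and 0.0812% lower in PlGFCM against ConCM. In IL6_ConCM against ConCM they were 0.0857% higher and 0.0271% lower. Of 15 measured partners and inducers of Bcl6, 2 rose in PlGFCM, Maf and Il6ra, and 0 fell, while in IL6_ConCM none of 15 passed and 0 passed between the treatments. Maf, a transcription factor that drives Il21, had log2 levels of 8.41 and 8.23 in PlGFCM, 7.48 and 7.88 in IL6_ConCM, and 7.31 and 7.62 in ConCM. Its log2 change was 0.85 ± 0.14 (SE) in PlGFCM (limma adjusted p = 0.0287), 0.22 in IL6_ConCM (adjusted p = 0.981) and 0.64 between PlGFCM and IL6_ConCM (adjusted p = 0.365). The PlGFCM arrays lay above the other 4, which overlapped. Il6ra, the IL-6 binding receptor chain, had log2 levels of 9.96 and 10.04 in PlGFCM, 9.94 and 9.95 in IL6_ConCM, and 9.63 and 9.55 in ConCM. It rose by 0.41 in PlGFCM (adjusted p = 0.0285) and was 0.36 above ConCM in IL6_ConCM (adjusted p = 0.101), with both treated groups clear of ConCM. Leaving out any single array of PlGFCM or ConCM ended the call of both Maf and Il6ra, as did a fit without an intensity trend (adjusted p = 0.308 and 0.386).

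Other genes of the same list did not pass in any comparison. Stat3, the factor activated by IL-6 and IL-21, was at 0.18 in PlGFCM and 0.08 in IL6_ConCM (adjusted p = 0.325 and 0.988). Batf, an AP-1 factor needed for Bcl6 and Maf expression, was at 0.29 and 0.25 (adjusted p = 0.322 and 0.725). Irf4, which acts with Batf, was at 0.15 in PlGFCM and -0.12 in IL6_ConCM, and the difference of 0.27 between them did not pass (adjusted p = 0.468). Nfatc2, a factor activated by calcium, was at 0.11 and 0.21 (adjusted p = 0.752 and 0.785), and Il6st, the signalling chain of the IL-6 receptor, at 0.21 and 0.01 (adjusted p = 0.406 and 1.0). The median of the list was 0.12 in PlGFCM and 0.02 in IL6_ConCM. Tcf7 was not analysed here.

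None of 14 surface and secreted follicular helper genes passed in any comparison, with medians of 0.05 in PlGFCM and -0.04 in IL6_ConCM. Pdcd1, the inhibitory receptor PD-1, was at 0.00 and -0.17, Cd40lg, which delivers help to B cells, at -0.06 and -0.13, and Il4, the cytokine of germinal centre helper cells, at -0.05 and -0.02 (adjusted p from 0.937 to 1.0). The mean log2 level of Il4, 5.535, lay close to the median of all probe sets, 5.48. Gpr183, an oxysterol receptor that positions cells at the follicle edge, was at 0.20 and 0.07 (adjusted p = 0.298 and 0.997), and Cxcr4 at 0.37 and 0.16 (adjusted p = 0.398 and 0.996). Btla, an inhibitory receptor, was at 0.20 and 0.26 (adjusted p = 0.559 and 0.671). Tnfsf8, the CD30 ligand, was at -0.15 and -0.25 (adjusted p = 0.663 and 0.618). Tnfrsf4, the costimulatory receptor OX40, differed by 0.15 and Cd200, a membrane glycoprotein, by 0.21 between PlGFCM and IL6_ConCM (adjusted p = 0.998 for both).

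Of 17 genes that oppose the follicular helper program or mark cells outside it, 1 rose in PlGFCM, S1pr1, 0 fell, and in IL6_ConCM none passed. S1pr1, the receptor that takes T cells out of lymphoid tissue, had log2 levels of 10.54 and 10.54 in PlGFCM, 10.33 and 10.40 in IL6_ConCM, and 10.13 and 10.07 in ConCM. It rose by 0.44 ± 0.06 (SE) in PlGFCM (limma adjusted p = 0.0155) and was 0.27 above ConCM in IL6_ConCM (adjusted p = 0.258), and the 3 groups did not overlap. It did not pass without either PlGFCM array, without ConCM replicate 2 or without an intensity trend (adjusted p = 0.358 for the last). Klf2, the factor that drives S1pr1 and restrains follicular helper cells, was at 0.39 in PlGFCM and 0.13 in IL6_ConCM (adjusted p = 0.0710 and 0.981). Prdm1, which encodes Blimp-1, the repressor of Bcl6, was at 0.38 and 0.36 (adjusted p = 0.113 and 0.258). Stat5a, which carries the opposing IL-2 signal, was at 0.39 in PlGFCM and 0.04 in IL6_ConCM (adjusted p = 0.0908 and 1.0), its near copy Stat5b at 0.24 and -0.0049 (adjusted p = 0.230 and 1.0), and Tbx21, the Th1 factor, at -0.25 and -0.52 (adjusted p = 0.592 and 0.230). The median of this list was 0.11 in PlGFCM and 0.04 in IL6_ConCM.

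Of 18 measured genes of IL-21 receptor signalling and the common gamma chain family, 1 rose in PlGFCM, Socs3, and 0 fell, and none passed in IL6_ConCM. Socs3, a feedback inhibitor induced by STAT3, had log2 levels of 9.87 and 9.69 in PlGFCM, 9.61 and 9.76 in IL6_ConCM, and 9.36 and 9.21 in ConCM. It rose by 0.49 ± 0.09 (SE) in PlGFCM (limma adjusted p = 0.0442), was 0.40 above ConCM in IL6_ConCM (adjusted p = 0.217). Its call in PlGFCM ended without any single array of PlGFCM or ConCM, with the mean of probe sets (adjusted p = 0.0667) and without an intensity trend (0.397). Both treated groups lay above ConCM and overlapped each other. Il4ra, the IL-4 receptor chain, was at 0.26 in PlGFCM and 0.37 in IL6_ConCM (adjusted p = 0.145 and 0.0550). Il2rb, a receptor chain for IL-2 and IL-15, was at -0.07 and -0.11 (adjusted p = 0.740 and 0.894), and the cytokine Il9 at 0.39 and -0.09 (adjusted p = 0.595 and 1.0). Il2rg and Jak3 were not analysed here.

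Genes around SAP and ICOS gave no call. None of 10 SLAM receptors and SAP partners passed in any comparison, with medians of -0.03 in both treatments. Slamf7, a SLAM receptor, was at -0.23 in PlGFCM and -0.30 in IL6_ConCM (adjusted p = 0.317 and 0.267), Slamf6, which SAP serves in T cells, at 0.17 and 0.19 (adjusted p = 0.735 and 0.981), and Slamf1 at 0.18 and 0.02 (adjusted p = 0.619 and 1.0). Sh2d1b1, which encodes the SAP relative EAT-2, was at -0.13 in PlGFCM and -0.60 in IL6_ConCM (adjusted p = 0.883 and 0.408), with a mean log2 level of 3.96 that lies below the median of all probe sets. Cd48, a SLAM family ligand, was at -0.17 and -0.08, and Prkcq, a kinase of T cell receptor signalling, at 0.11 and 0.17 (adjusted p from 0.600 to 0.997). None of 8 genes of ICOS ligand and signalling passed, with changes from -0.04 to 0.13 in PlGFCM and from -0.11 to 0.08 in IL6_ConCM. Icosl, the ligand of Icos, was at -0.01 and -0.11 (adjusted p = 0.992 and 0.997). Pik3ca and Pik3r1, subunits of PI3 kinase, were at 0.11 and 0.10 in PlGFCM and at 0.05 and 0.03 in IL6_ConCM, Tbk1, a kinase that binds Icos, at 0.09 and -0.06, and the costimulatory receptor Cd28 at 0.01 and 0.08 (adjusted p from 0.731 to 1.0).

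**Figure D4:**
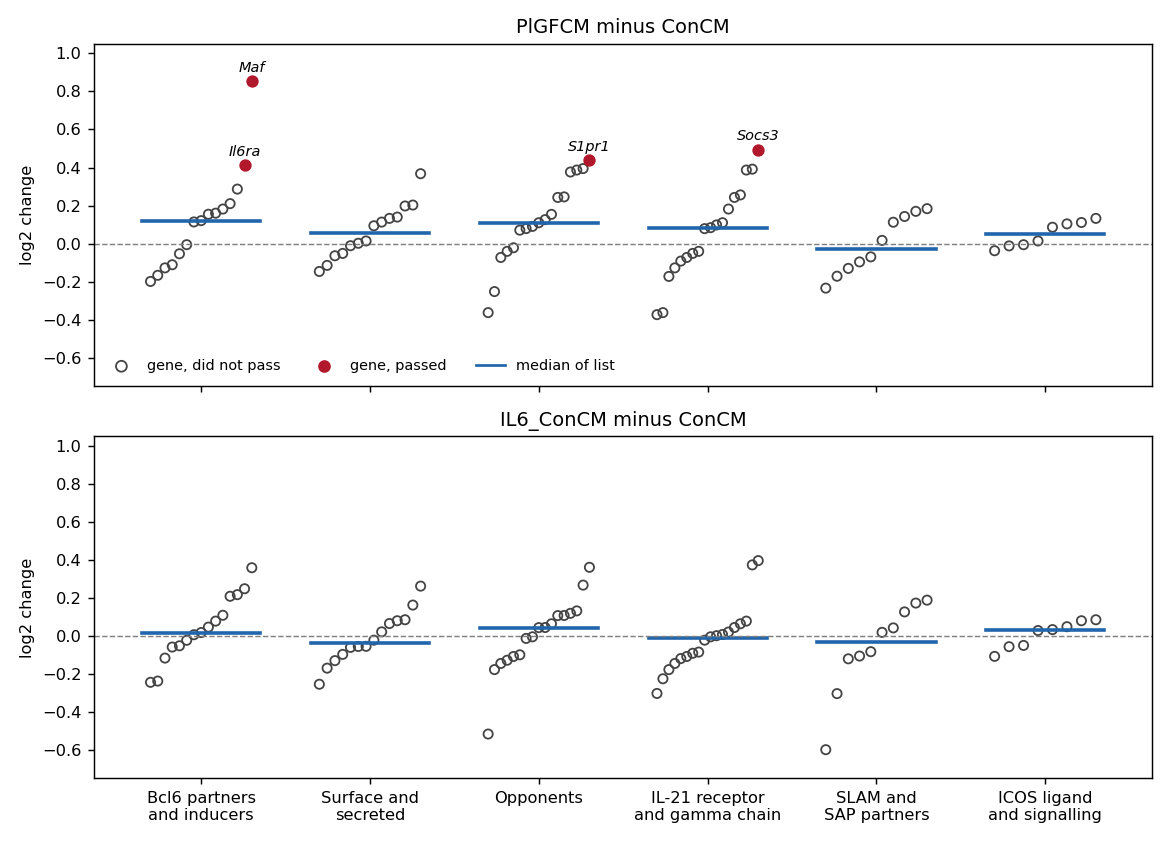
Log2 change of every measured gene of 6 lists of partner genes, in PlGFCM against ConCM (upper panel) and IL6_ConCM against ConCM (lower panel), with the list median as a line and filled points for genes that passed limma at an adjusted p under 0.05. The filled points are Maf, Il6ra, S1pr1 and Socs3 in PlGFCM, and the lower panel has none.

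Several of the 7 genes lie next to a gene of related function. By the order of protein-coding genes in RefSeq, Il21 lies beside Il2, Il21r beside Il4ra, and Icos beside Ctla4. Il2, the T cell growth factor, had log2 levels of 7.49 and 7.16 in PlGFCM, 7.19 and 7.25 in IL6_ConCM, and 7.43 and 7.30 in ConCM, with changes of -0.04 and -0.14 (limma adjusted p = 0.958 and 0.997), and its groups overlapped in PlGFCM. Il4ra had log2 levels of 11.37 and 11.36 in PlGFCM, 11.45 and 11.51 in IL6_ConCM, and 11.17 and 11.04 in ConCM, in the same order of groups as Il21r, with ConCM replicate 2 lowest for both. Ctla4, an inhibitory receptor, was at 0.13 and 0.08 (adjusted p = 0.607 and 0.993). Apart from Il4ra in IL6_ConCM, the smallest adjusted p among all 14 neighbours against ConCM was 0.145, that of Il4ra in PlGFCM.

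Genes whose profile over the 6 arrays lay closest to that of Il21 were found by the root mean square difference of log2 levels after subtraction of each gene's mean. The 5 closest were Chd7 at 0.16 log2 units, Astx5 at 0.17, Plac8 at 0.17, Sgk1 at 0.18 and 4833419F23Rik at 0.18. Of the other members, Il21r was closest at 0.27 and ranked 46th, Cxcr5 followed at 0.36, and Sh2d1a was farthest at 0.61. Chd7, a chromatin remodelling enzyme, had log2 levels of 10.03 and 10.15 in PlGFCM, 10.26 and 10.17 in IL6_ConCM, and 9.72 and 9.22 in ConCM, with changes of 0.62 and 0.74 (limma adjusted p = 0.0763 and 0.0586). Sgk1, a kinase of salt and growth factor signalling, was at 0.70 and 0.70 (adjusted p = 0.0505 and 0.0814). Astx5 was at 0.72 and 0.80 (adjusted p = 0.462 and 0.695). Its log2 levels, 3.78 to 5.31, lay below the median of all probe sets, and ConCM replicate 1 lay above PlGFCM replicate 1. Plac8 rose in both treatments, by 0.92 in PlGFCM and 1.01 in IL6_ConCM (adjusted p = 0.0242 and 0.0267), and 4833419F23Rik by 0.79 and 1.01 (adjusted p = 0.0272 and 0.0147). In PlGFCM the calls of Plac8 and 4833419F23Rik ended without PlGFCM replicate 1, PlGFCM replicate 2 or ConCM replicate 2. In IL6_ConCM both ended without any single array other than ConCM replicate 1, the PlGFCM arrays included, which enter through the shared spread, and with the arrays of IL6_ConCM and ConCM alone (adjusted p = 0.0809 and 0.0618). These 5 genes were picked for their likeness to Il21, so their likeness to it on the ConCM arrays is by choice.

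**Figure D5:**
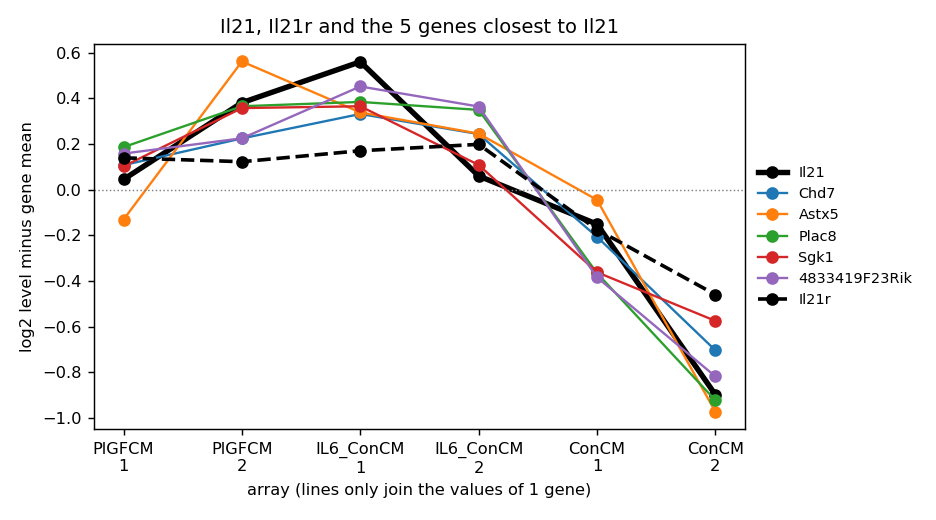
Log2 level minus the gene's mean over 6 arrays (vertical axis) on each array (horizontal axis) for Il21, Il21r and the 5 genes closest to Il21, with lines joining the values of 1 gene. All 7 genes are lowest on ConCM replicate 2, and Il21r, the dashed line, spans 0.66 log2 units against 1.46 for Il21.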

How the data were processed

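Total RNA of 6 samples was hybridised to a whole-transcript array. The authors deposited 1 log2 value for each probe set on each array. Per the submitters' processing notes they used Transcriptome Analysis Console. Version, background correction, normalization and build were not given in the sources used here. That the values are log2 was read from their range, array medians ran from 5.47 to 5.51, and the values were not normalized again. The number of arrays, 2 a group, limits the precision.

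Of 41345 probe sets, 23521 have 1 gene symbol in the platform annotation, 1814 have several and were left out, and 16010 are unnamed here. Gene IDs of 23328 were found in RefSeq, which changed 0 symbols. Each gene was read from its brightest probe set, 22180 genes in all, and dim genes were kept. All 6 arrays entered 1 fit in limma version 3.58.1 under R 4.3.3, by lmFit and then eBayes with trend, which left 3 residual degrees of freedom beside a prior whose median was 8.14. The 3 group differences came from this fit. "Rose" and "fell" mean a Benjamini-Hochberg p under 0.05, adjusted over the 22180 genes. Tables were made with Python 3.11.15 and pandas 2.3.3, and plots with matplotlib 3.10.9.

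The 7 genes, the partner lists and the alternatives were chosen with earlier results of these data known. Named beside the 7 genes were list members that passed or had the smallest p in a comparison, a fixed set of partners, the 5 genes closest to Il21 and, chosen after their values were seen, the B cell markers, Gzma and the neighbouring genes. The fit of PlGFCM against ConCM was then run on simulated data, 10 runs in which 200 of 22180 genes differed. In the simulation it recovered 23.6% of log2 differences of 0.5, 89.3% at 1 and 99.1% at 1.5, and 4.78% of its calls were false. These rates describe the simulated data alone. They cannot give the share of false or missed calls on the real arrays, whose spread need not follow the simulation. The alternatives were quantile normalization, dim genes (under the median level of all probe sets, 5.48) left out, the mean of probe sets per gene, no intensity trend, the replicate number as a block, the arrays of the compared groups alone and each array left out in turn.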

Additional observations from a re-analysis of the deposited data

How the results depend on the processing

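Of 21 log2 changes, 7 genes in 3 comparisons, 12 kept their sign in every alternative and 9 did not, all 9 with an adjusted p from 0.739 to 1.0 in every alternative. The number of the 7 genes that passed in PlGFCM against ConCM, 0 as reported, was 1 with quantile normalization and 1 with dim genes left out, and ran from 0 to 2 with single arrays left out. In IL6_ConCM against ConCM it was 1 with dim genes left out and ran from 0 to 2, and between the treatments it was 0 throughout. Over all genes, the 96 that changed in PlGFCM against ConCM became 174 with dim genes left out, 6 without an intensity trend and 62 with the replicate block, and ran from 12 to 107 with single arrays left out, lowest without PlGFCM replicate 2. The 25 in IL6_ConCM against ConCM became 53, 1 and 16 under the same settings and 12 with the arrays of the compared groups alone, and ran from 2, without ConCM replicate 2, to 41. The 7 in PlGFCM against IL6_ConCM became 0 without an intensity trend by limma, where 1002 genes had an unadjusted p under 0.05, and ran from 0 to 5, with 0 without PlGFCM replicate 2 and without IL6_ConCM replicate 2, where 1446 and 1080 genes had such a p. The filter tests fewer genes, and the cause of the other differences was not tested. Most alternatives could not change a sign. The filter, the mean of probe sets, the fit without an intensity trend and the block leave the log2 changes of the 7 genes as they were. So do the arrays of the compared groups alone and leaving out an array of the third group. The counts of kept signs therefore rest on quantile normalization and on leaving out arrays of the compared groups.

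Whether replicate numbers pair the samples is not in the labels. Correlations that run over all genes cannot decide it, since they can miss a pairing that touches few genes. Deviations of same-numbered arrays from their group means correlated across genes at 0.033 for PlGFCM and IL6_ConCM, -0.039 for PlGFCM and ConCM, and 0.111 for IL6_ConCM and ConCM. With the replicate block, genes with an unadjusted limma p under 0.05 went from 1938 to 2190 in PlGFCM against ConCM. They went from 1247 to 1403 in IL6_ConCM against ConCM and from 969 to 1073 between the treatments. Genes that passed after adjustment went from 96 to 62, from 25 to 16 and from 7 to 5. With the block none of the 7 genes passed, and Il21r had an adjusted p of 0.0720 in PlGFCM and 0.0993 in IL6_ConCM. Of the other named genes, the block ended the calls in PlGFCM of Maf (0.0545), Il6ra (0.0550), Socs3 (0.0750) and Plac8 (0.0550), and that of Plac8 in IL6_ConCM (0.0722). Without an intensity trend every call named outside the 7 genes ended, Ms4a1, Fcer2a and Gzma included, with adjusted p from 0.0996 to 0.397.

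Sign changes with quantile normalization were Icos at -0.017 in PlGFCM against ConCM, and Bcl6 at -0.019 and Ascl2 at 0.017 in PlGFCM against IL6_ConCM. With single arrays left out, changes against ConCM in PlGFCM ran from -0.15 to 0.23 for Bcl6, from -0.034 to 0.034 for Icos and from -0.29 to 0.032 for Ascl2. Without PlGFCM replicate 2 they were 0.13 for Bcl6, 0.034 for Icos and 0.032 for Ascl2, whose sign changed in this setting alone. In IL6_ConCM they ran from -0.15 to 0.22 for Bcl6, from -0.035 to 0.017 for Icos and, of the partner genes, from -0.053 to 0.141 for Stat5a. Between PlGFCM and IL6_ConCM they ran from -0.35 to 0.15 for Il21, from -0.087 to 0.10 for Bcl6, from -0.025 to 0.044 for Icos and from -0.16 to 0.16 for Ascl2.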
